A study of Mus musculus with 4 samples.

Results

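The 46 genes described here are the long intergenic noncoding RNA (lincRNA) genes that were best covered by reads in whole-lysate RNA of the mouse hippocampus. They were chosen by their level: the GENCODE M21 genes of type lincRNA whose mean over both input libraries was at least 20 CPM (counts per 1e6, a gene's count divided by the library's total and multiplied by 1e6). The count table lists 52636 genes, of which 5009 are of type lincRNA. Of these, 896 had a count in either library and 456 in both, and 46 reached the minimum. The levels chose the genes, so the levels below are a description and carry no test.

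The study pulled down RNA with an anti-YTHDF2 antibody. YTHDF2 is a reader of m6A, a methyl mark on adenosines, and hastens the decay of the RNA it binds. The animals were C57BL/6 mice at postnatal day 40, labelled WT, and the tissue was the hippocampus. The labels give 4 libraries: 2 of immunoprecipitated RNA (YTHDF2) and 2 of input RNA, which is lysate RNA before the pull-down. The immunoprecipitated libraries were not analysed here, so nothing below bears on binding by YTHDF2, and every value is from the 2 input libraries. They are called the deeper library (3334451 counts) and the shallower library (2563069 counts). The labels do not say whether they came from different animals, so the spread between them may be technical. In bulk tissue, fewer cells of a type and less RNA per cell cannot be told apart.

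A lincRNA gene is transcribed by RNA polymerase II, usually spliced and polyadenylated, and makes no known protein. Some lincRNAs stay in the nucleus and organise nuclear bodies or act on the chromosome they come from. Others act in the cytoplasm by binding proteins or microRNAs, and some are the precursor from which a microRNA hairpin is cut. MicroRNAs are short RNAs that pair with target RNAs mainly through the seed, bases 2 to 8 from their 5′ end. In the brain, lincRNA genes are mostly expressed at lower levels than protein-coding genes.

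Several of the 46 genes are known by what their sequence holds, so the sequences that the results refer to come first. They show microRNAs encoded inside these genes, a microRNA site in one of them, and repeated protein-binding elements in another. The mature microRNAs are from RefSeq on the GRCm38.p6 build, written 5′ to 3′ with the seed in capitals. miR-9 is abundant in neural tissue and lies in Gm3764 (Mir9-1, chr3:88215613-88215635, plus strand) and in C130071C03Rik (Mir9-2, chr13:83738821-83738843, plus strand). The same mature sequence is encoded at both. miR-138, which limits dendritic spine size in rat neurons, lies in an exon of C78859 (chr8:94324312-94324334, plus strand). miR-134, which also limits spine size in rat neurons, is one of the microRNAs of Mirg (chr12:109734145-109734166, plus strand). miR-1906 is encoded in Meg3 (chr12:109544588-109544609, plus strand) and again in Gm27000 (chrX:88759485-88759506, minus strand).
mmu-miR-9-5p: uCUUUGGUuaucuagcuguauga
mmu-miR-138-5p: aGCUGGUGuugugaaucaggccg
mmu-miR-134-5p: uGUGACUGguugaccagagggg
mmu-miR-1906: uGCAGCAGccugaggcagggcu

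The next set concerns miR-7, a neuronal microRNA that is not encoded in any of the 46 genes, and 2 genes known for binding it. The seed match itself, GTCTTCC, occurs in the longest transcript of 20 of the 46 genes (43.5%). It occurs in 20.4% of the other 850 lincRNA genes with a count and in 34.5% of protein-coding genes of at least 20 CPM. Transcripts of these sets have other lengths, and the shares were not matched for it. 1700020I14Rik, which RefSeq names Oip5os1 with the synonym Cyrano, is known for a long, conserved miR-7 site through which it lowers miR-7 levels in mouse brain. The site lies at bases 2952 to 2959 of its longest transcript (the seed-end match) and at chr2:119602136-119602161 on the plus strand of GRCm38. C230004F18Rik, which RefSeq names Cdr1os with the synonym Cdr1as, lies opposite Cdr1, and a circular RNA of this locus is known to bind miR-7. Its printed stretch is chrX:61184566-61184625, plus strand, and holds 3 of its many seed matches. Capitals mark the seed in the microRNA, the bases complementary to miR-7 in the Cyrano site, and the seed matches in the last line.
mmu-miR-7a-5p: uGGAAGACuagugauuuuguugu
1700020I14Rik site: aACAACAAAATCACcaatGTCTTCCA
C230004F18Rik stretch: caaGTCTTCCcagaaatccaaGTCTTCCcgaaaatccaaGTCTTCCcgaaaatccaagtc
In the Cyrano site 8 bases at the seed end and 13 bases further 5′ in the transcript were complementary to miR-7a-5p, with a linker of 4 bases between them.

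The last pair is 2900097C17Rik, which RefSeq names Norad, and its copy Gm7292. Norad is a cytoplasmic RNA known for binding the Pumilio proteins, repressors of mRNA, and for its part in keeping chromosomes stable. The stretch of 2900097C17Rik is chr2:156390499-156390558 on the minus strand, and the stretch of Gm7292 is chr6:117718737-117718796 on the plus strand. Capitals mark the Pumilio element TGTANATA.
2900097C17Rik stretch: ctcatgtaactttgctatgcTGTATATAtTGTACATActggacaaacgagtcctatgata
Gm7292 stretch: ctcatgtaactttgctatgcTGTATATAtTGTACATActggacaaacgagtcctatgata
Both stretches hold 2 elements, and 0 of the 60 bases differed between gene and copy.

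Before the levels, the label of the tissue and the type was checked. Summed markers of pyramidal neurons stood at 5360 CPM in the deeper and 5557 CPM in the shallower library, and those of dentate granule cells at 310 and 311 CPM. Markers of choroid plexus (2.1 and 2.7 CPM) and cerebellum (0 and 0 CPM) were at or near the limit of detection, while striatal markers reached 20.7 and 38.2 CPM. Astrocyte markers were higher in the deeper library (5650 CPM) than in the shallower (4271 CPM), and their part in the differences between libraries below was not tested. Slc1a2 (5277 and 3900 CPM) made up most of that sum and Aqp4 went the same way (151 and 110 CPM), whereas Gfap stood at 222 and 261 CPM. For the type, 20 of the 46 genes (43.5%) shared exon bases with another gene in GENCODE M21. Among the other 850 lincRNA genes with a count, 28.9% did. The 46 genes have more exon bases, with a median of 5104.5 against 1895, and the shares were not matched for it. A sizeable share of both sets is thus intergenic by type but not by position.

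The 46 genes held 4.01% of all counts in the deeper library (95% exact binomial interval 3.99 to 4.03%) and 4.43% in the shallower (4.41 to 4.46%), with a mean of 4.22 ± 0.30% (SD, n = 2). These intervals, like those below, cover counting error only. The genes made up 96.2% of the counts of all lincRNA genes in the deeper library and 95.7% in the shallower. The share was uneven among them. AY036118 alone took 68.2% of their counts in the deeper library and 69.3% in the shallower. Without it, the other 45 genes held 1.27% and 1.36% of all counts, a mean of 1.32 ± 0.06%. Malat1 held 0.759% and 0.870%, Norad 0.204% and 0.165%, and Cyrano 0.0693% and 0.0522%. The remaining 42 genes together held 0.242% in the deeper library and 0.275% in the shallower.

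**Figure D1:**
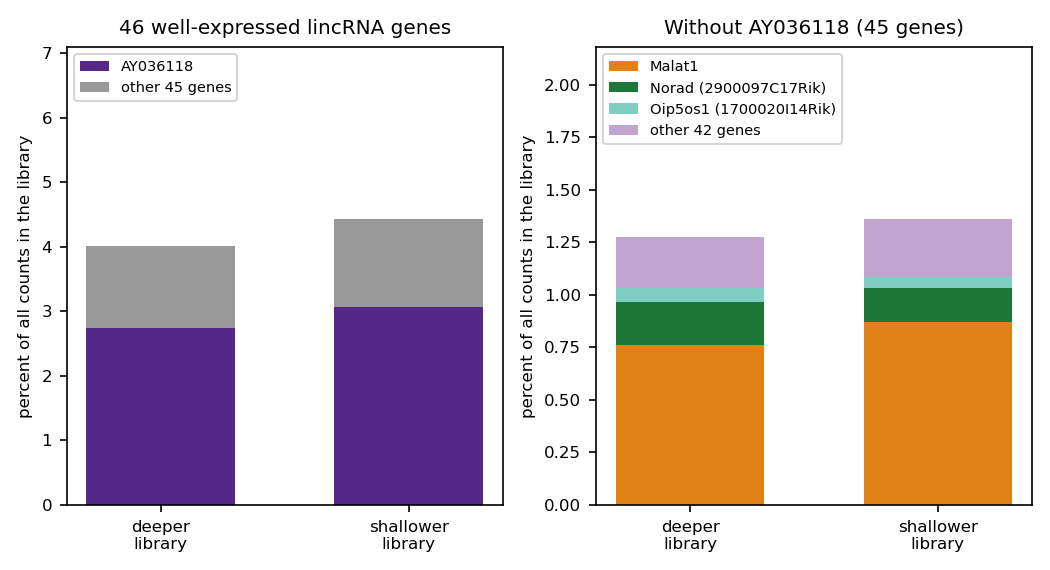
Share of each input library's counts (vertical axes, percent, from 0) held by the well-expressed lincRNA genes, with the deeper library on the left of each panel. In the left panel AY036118 fills most of both columns, 2.73% in the deeper and 3.07% in the shallower library. In the right panel, without it, Malat1 is the larger part of 1.27% and 1.36%.

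AY036118 stands apart from the rest by position as well as by count. It had 91172 counts in the deeper library and 78702 in the shallower, or 27342 and 30706 CPM. Its single exon of 923 bases (chr17:39847113-39848035, minus strand) lies wholly inside an exon of CT010467.1, a gene annotated as ribosomal RNA on the same strand. CT010467.1 had 81683 counts in the deeper library and 70400 in the shallower. The log2 ratios of deeper over shallower were -0.02 for both genes. All 31-base words of AY036118 (100%) also occur in transcripts of another gene, and Gm42418, a lincRNA gene on the opposite strand that covers the same bases, had 6 and 19 counts. How the counter divided reads between these genes is not given in the sources used here, so the count of AY036118 cannot be told apart from reads of the ribosomal RNA annotation.

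The next genes in level are nuclear RNAs and cytoplasmic RNAs with known roles. Malat1, an RNA of nuclear speckles, the bodies where splicing factors gather, had 25310 counts (7590 CPM) in the deeper library and 22289 counts (8696 CPM) in the shallower. Norad had 6817 counts (2044 CPM) and 4222 counts (1647 CPM), and Cyrano had 2310 counts (693 CPM) and 1337 counts (522 CPM). Malat1 was a little higher in the shallower library, whereas Norad and Cyrano were higher in the deeper. Their means were 8143 ± 782 CPM for Malat1, 1846 ± 281 CPM for Norad and 607 ± 121 CPM for Cyrano (SD, n = 2 each). No other gene of the 46 reached 300 CPM in either library.

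**Figure D2:**
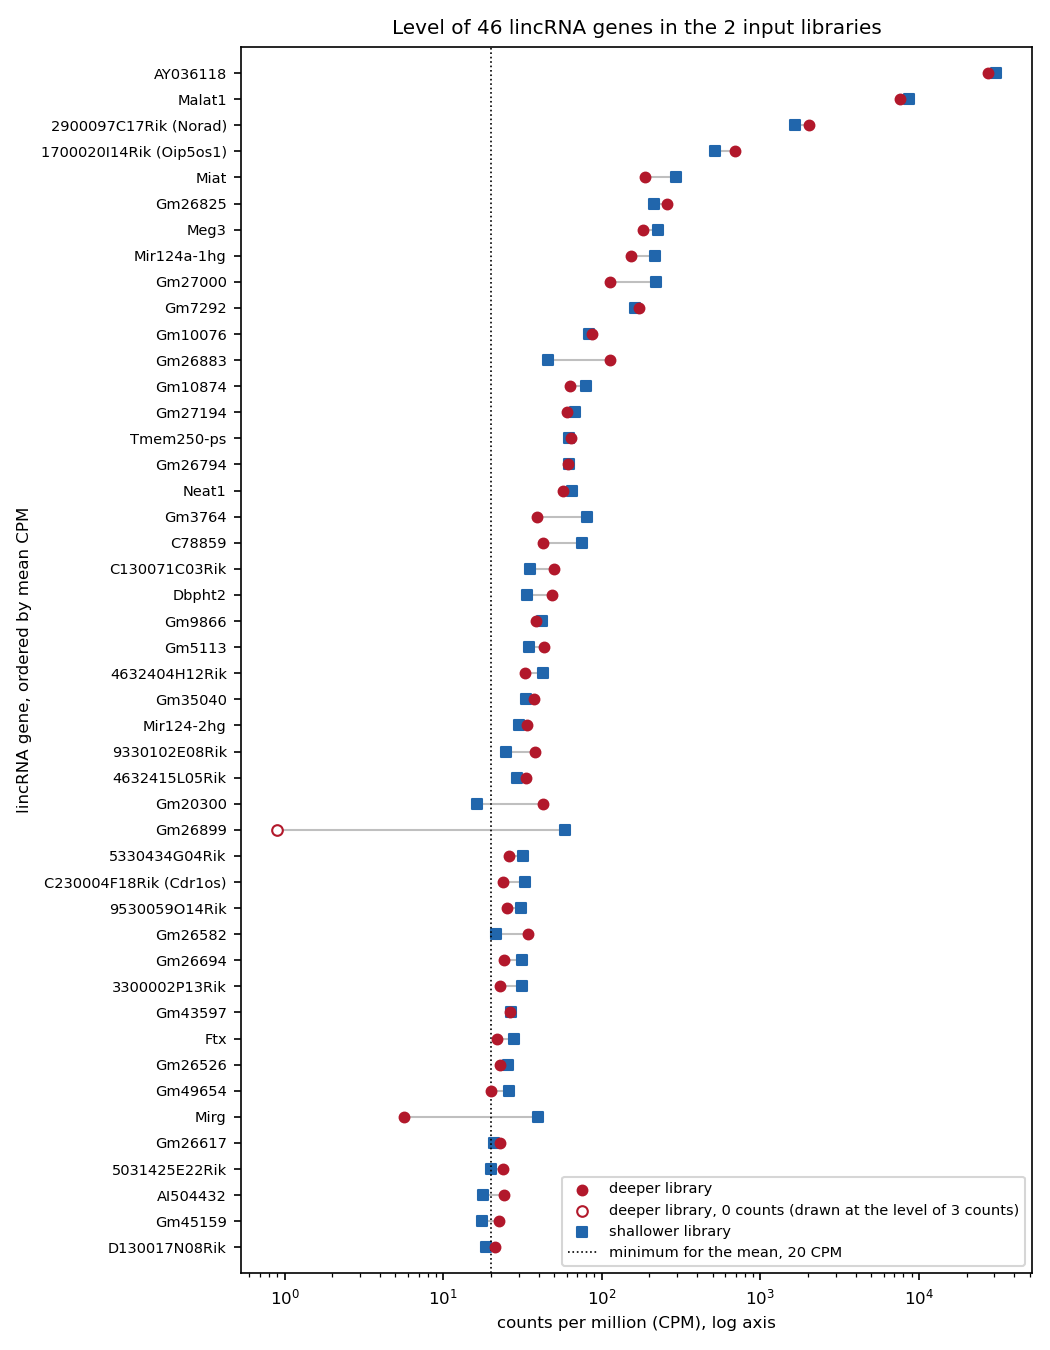
CPM of each of the 46 lincRNA genes (horizontal log axis) in the deeper (red circles) and shallower (blue squares) input library, ordered by mean CPM. Levels run from 29024 CPM for AY036118 to 20.01 CPM for D130017N08Rik, and most pairs of points lie close together. Gm26899, with 0 counts in the deeper library, is drawn there as an open circle at the level of 3 counts, 0.900 CPM.

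Below these came 6 genes between 100 and 300 CPM on average, in the order Miat, Gm26825, Meg3, Mir124a-1hg, Gm27000 and Gm7292, and then, under 100 CPM, Gm10076 and Gm26883. Miat, a nuclear RNA of neurons also called Gomafu, had 187 CPM in the deeper library and 292 CPM in the shallower. Meg3, the maternally expressed imprinted RNA, had 181 and 227 CPM. Neither gene's libraries differed by as much as 2-fold. Mir124a-1hg, which holds a hairpin of the neuronal microRNA miR-124, had 153 and 216 CPM, and was lower in the deeper library, as were Miat and Meg3. Gm26825 (259 and 215 CPM), Gm7292 (171 and 162 CPM) and Gm10076 (86.7 and 82.7 CPM) were slightly higher in the deeper.

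At the lower edge, the minimum separated genes of nearly the same level. AI504432 had 24.3 CPM in the deeper and 17.9 CPM in the shallower library, Gm45159 had 22.5 and 17.6 CPM, and D130017N08Rik had 21.3 and 18.7 CPM, with means of 21.1, 20.02 and 20.01 CPM. Just under the minimum, B230209E15Rik had 17.1 and 20.3 CPM, Gm17484 had 18.9 and 17.2 CPM, and C230057M02Rik had 9.0 and 25.8 CPM, with means of 18.7, 18.03 and 17.4 CPM. The libraries disagreed on which side of 20 CPM each of these 6 genes but Gm17484 lay.

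CPM does not take length into account, so levels of different genes were compared per length, as the authors' FPKM (fragments per kilobase of transcript and 1e6 reads). On this scale AY036118 led with a mean of 31446 ± 2577 FPKM, followed by Malat1 with 4362 ± 419, Norad with 703 ± 107, Gm10076 with 221 ± 7.29 and Gm27000 with 198 ± 89.5 FPKM. Cyrano (125 ± 25) and Mir124a-1hg (125 ± 29.9 FPKM) came next and did not differ beyond their spread. Gm26825 (117 ± 15.3) was also within it. Norad, Gm10076, Gm27000 and Gm26825 hold mostly 31-base words that occur more than once in the genome, so their counts may include reads of copies. The median of the 46 genes was 14.5 FPKM, against 0.710 FPKM for the other 850 lincRNA genes with a count and 25.4 FPKM for the 6309 protein-coding genes of at least 20 CPM. Gm45159, whose transcript is 25241 bases long, was lowest at 0.79 FPKM although it passed the CPM minimum.

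The length in the deposited FPKM moves some of these places. For 39 of the 45 genes with counts in both libraries it matched the average length of the GENCODE transcripts of that gene to within 1 base. That average is shorter than the longest transcript where a gene has short isoforms. Malat1 is one of the genes for which it did not match: its FPKM length was 1867 bases, against an average of 2170 bases and a longest transcript of 6983 bases. Per kilobase of the longest transcript, Malat1 stood at 1166 CPM and stayed in place 2, and Norad stood at 376 CPM and stayed in place 3. Meg3 went to place 19 with 14.03 CPM per kilobase, against place 10 by FPKM, since its longest transcript has 14548 bases. C230004F18Rik moved most of all, to place 45 with 1.44 CPM per kilobase, against place 18 by FPKM.

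Among nuclear and chromatin-bound RNAs, a list of 13 symbols held 9 lincRNA genes, of which 5 reached the minimum: Malat1, Miat, Meg3, Neat1 and Ftx. Over all lincRNA genes of the count table, 46 of 5009 did. Neat1, the scaffold of paraspeckles, lies next to Malat1 on chromosome 19 and had 57.0 CPM in the deeper library and 64.8 CPM in the shallower. Its level was far below that of its neighbour, at 7.36 ± 0.67 FPKM. Ftx, an activator of Xist in the X-inactivation centre, had 21.9 and 28.1 CPM. The 4 lincRNA genes of the list below the minimum were Xist, Jpx, Pvt1 and Rmst. Xist, the RNA that silences an X chromosome in female cells, had 2 counts in the deeper library and 0 in the shallower.

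Hosts of small nucleolar RNAs were absent from the 46 genes. A list of 20 such hosts held 6 lincRNA genes, all with a count in at least one library, and 0 reached the minimum. The highest of these 6, Snhg6, averaged 5.40 CPM. Listed hosts of other types stood far higher: Snhg11, typed protein-coding, averaged 799 CPM. Snhg14 (341 CPM) and Rian (335 CPM) are typed processed transcript. Their type kept these hosts out of the 46 genes, not their level. None of the 46 contained a small nucleolar RNA gene on its strand, while 16 of the other 850 detected lincRNA genes (1.88%) did. At so small a share, the absence from 46 genes does not set them apart. Among imprinted noncoding genes, Meg3 and Mirg were the members out of 3 lincRNA genes on a list of 10, the third being H19 with 0 counts in both libraries. On a mixed list of 15 RNAs, headed neurodevelopmental RNAs and neighbours of transcription factor genes, 3 of 6 lincRNA genes were members: Miat, Cyrano and Norad. The protein-coding genes nearest to Cyrano and Norad are Nusap1 and Epb41l1, which are not transcription factor genes. This list and those before it were drawn up with earlier results of these data known, so their counts are descriptions.

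Hosts of microRNAs were frequent. A microRNA gene of GENCODE M21 lay inside 11 of the 46 genes on the same strand (23.9%), against 3.41% of the other 850 detected lincRNA genes and 7.59% of the 6309 protein-coding genes. The 46 genes span more sequence, with a median of 11336 bases against 6880 bases for the other detected lincRNA genes and 37520 bases for the protein-coding genes, and the shares were not matched for it. The 11 genes held 28 microRNA genes in all, 14 of them in Mirg and 14 in the other 10. The hosts are Meg3, Mir124a-1hg, Gm27000, Gm3764, C78859, C130071C03Rik, Mir124-2hg, 5330434G04Rik, C230004F18Rik, Ftx and Mirg. On the list of 15 microRNA hosts, 4 of 9 lincRNA genes were members: Mir124a-1hg, Mir124-2hg, C130071C03Rik and Mirg. Over all lincRNA genes of the count table, 46 of 5009 were. This list too was drawn up with earlier results known, so its count is a description.

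Few of their microRNAs share a seed with another. Gm3764 and C130071C03Rik share the miR-9 seed CUUUGGU, and the star strand miR-9-3p shares UAAAGCU at the same genes. Within Mirg, miR-453 and miR-496a-5p share GGUUGCC. Mir124a-1hg and Mir124-2hg each hold a hairpin of the miR-124 family. The other mature sequences of the table that lie inside members each had a seed of their own, apart from miR-1906, which is encoded at 2 places.

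The 2 hosts of miR-9 went opposite ways between libraries. Gm3764 had 131 counts (39.3 CPM) in the deeper library and 206 counts (80.4 CPM) in the shallower, a log2 ratio of -0.88 (95% interval -1.22 to -0.57). C130071C03Rik, whose nearest protein-coding gene is that of the neuronal transcription factor Mef2c, had 166 counts (49.8 CPM) and 90 counts (35.1 CPM), a log2 ratio of 0.64 (0.27 to 1.03). With the trend on GC content removed, which is described below, the ratios were -0.76 for Gm3764 and 0.29 for C130071C03Rik. C130071C03Rik also shares exon bases with Gm33366 on the opposite strand. The third locus, Mir9-3hg, had 36 and 39 counts and a mean of 13.0 CPM, below the minimum. Gm35040, which begins just past the end of Mir9-3hg on the same strand, was a member with 125 counts in the deeper and 86 in the shallower library.

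The hosts of miR-124 also differed from each other. Mir124a-1hg had 511 counts in the deeper library and 553 in the shallower, a log2 ratio of -0.35 (-0.53 to -0.17). Mir124-2hg had 112 and 77 counts, a ratio of 0.30 (-0.13 to 0.74), and its interval includes 0. By FPKM, Mir124a-1hg (125 ± 29.9) stood above Mir124-2hg (26.2 ± 2.07) by more than their spread. For miR-138, C78859 had 143 and 192 counts, a ratio of -0.65 (-0.98 to -0.34). 9530059O14Rik, which ends 3280 bases before the other miR-138 hairpin, Mir138-1, had 84 and 79 counts, a ratio of -0.14 that its interval does not separate from 0.

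Of the 11 microRNA hosts, 9 were lower in the deeper library and 2 were higher, with a median log2 ratio of -0.30. Of the other 35 genes, 13 were lower and 22 higher, with a median of 0.21. Over the 6915 genes of all types at the same minimum, 44.99% were lower, with a median of 0.04, and over the 479 protein-coding genes that contain a microRNA, 45.1% were lower, also with a median of 0.04. The grouping was made after the ratios had been seen, and genes are not replicates, so these are descriptions. Nor are the hosts separate from each other: Gm27000 aligned to Meg3 with 99.9% identity, and Meg3 and Mirg lie in the same imprinted domain. The microRNA gene inside C230004F18Rik, Gm24396, carries no microRNA name in GENCODE M21. The counting interval lay below 0 for 6 of the 11 hosts, above 0 for 1 and included 0 for 4. The same count over all genes was not made. The hosts' counts of 9 and 2 were equal without TMM factors, with DESeq2 size factors and with the trend on GC content removed, but the counts beside them moved with the scaling. Without TMM factors 16 of the other 35 genes and 60.9% of all genes were lower, and with DESeq2 size factors 8 of the 35 and 39.2% of all genes were. The summed counts of annotated microRNA genes moved the same way, at 0.569% of the deeper library and 1.13% of the shallower, and their part in the hosts' ratios was not tested.

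Mirg, a maternally expressed microRNA host of the imprinted Dlk1-Dio3 domain, had the lowest ratio among those of the 46 genes with counts in both libraries. It had 19 counts (5.70 CPM) in the deeper library and 101 counts (39.4 CPM) in the shallower, a log2 ratio of -2.55 (-3.44 to -1.93). It passed the minimum through the shallower library alone. Along the same strand, Meg3 had 604 and 582 counts, a ratio of -0.18 (-0.35 to -0.01). Rian, a host of small nucleolar RNAs of type processed transcript, had 931 and 1004 counts, a ratio of -0.34. B830012L14Rik, a lincRNA gene below the minimum, had 24 and 49 counts, a ratio of -1.21. The intervals of all 4 genes on this strand between Meg3 and Mirg lay below 0, and that of Mirg did not reach those of the other 3 except for the interval of B830012L14Rik. Rtl1, on the opposite strand, had 125 and 227 counts (-1.09), whereas the flanking gene Dlk1 (44 and 17 counts) was higher in the deeper library. For Dio3, at the other flank (30 and 15 counts), the ratio was 0.72 with an interval that includes 0.

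**Figure D3:**
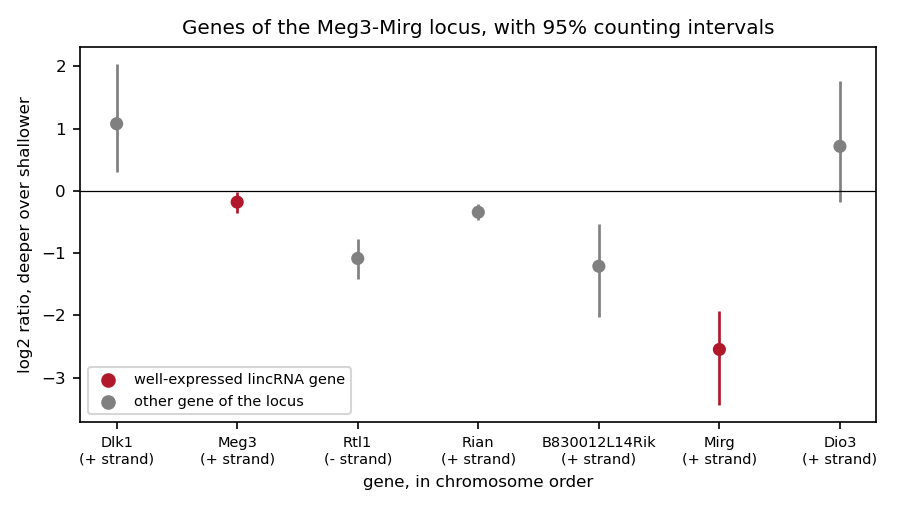
Log2 ratio of deeper over shallower library (vertical axis) for genes of the imprinted domain on chromosome 12, in chromosome order with their strand; bars are 95% counting intervals. Meg3 lies at -0.18 and Mirg at -2.55, and the genes between them lie at -1.09, -0.34 and -1.21, while Dlk1 and Dio3 lie at 1.08 and 0.72, and the bar of Dio3 crosses 0.

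The RNAs known for binding miR-7 were both measured. Cyrano had a log2 ratio of 0.55 (0.46 to 0.65), higher in the deeper library. C230004F18Rik had 80 counts in the deeper library and 84 in the shallower, a ratio of -0.30 (-0.77 to 0.15) that its interval does not separate from 0. Cdr1, annotated on the opposite strand over 1554 bases of its exon, had 699 and 224 counts, a ratio of 1.40 (1.19 to 1.63). Whether the counter used strand is not given in the sources used here, and reads of the circular RNA cannot be told apart from those of either gene. The summed counts of both genes were 779 and 308, a ratio of 1.10.

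The miR-7 seed match GTCTTCC, searched on the transcript strand, occurs 125 times in the longest transcript of C230004F18Rik, which has 19658 bases. The commonest spacing between neighbours was 18 bases, seen 86 times, and 123 of the matches lie between bases 8769 and 11594. Of these, 79 lie opposite the annotated body of Cdr1. Among 469 GENCODE genes whose longest transcript has at least 10000 bases, 64.6% held the match at least 1 time with a median of 1, and C230004F18Rik alone held as many as 125. In Cyrano the match occurs 2 times in 8300 bases, and 15.5% of 1179 genes with longest transcripts of 7000 to 10000 bases held at least as many. The count of seed matches thus does not set Cyrano apart from transcripts of its length, while the extended pairing printed above lies at its second match.

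The Pumilio element TGTANATA occurs 11 times in the 4915 bases of Norad. Among 4676 genes with longest transcripts of 4000 to 6000 bases, 41.6% held the element at least 1 time, and 2 genes including Norad (0.0428%) held 11 or more. The copy Gm7292 held 9 in 2527 bases, and 1 of 7332 genes with transcripts of 2000 to 3000 bases, Gm7292 itself, held as many. Over the 46 genes the element was found in 18 (39.1%), against 170 of the 850 other detected lincRNA genes and 41.3% of protein-coding genes at the minimum, whose transcripts have other lengths. GGACT, the core of the sequence in which m6A is mostly placed, occurred 1.01 times per kilobase in the 46 genes, 1.04 times in the other detected lincRNA genes and 1.04 times in the protein-coding genes. It was absent from AY036118, Norad, Gm27000, Gm7292 and Gm10874, and these letters say nothing of whether a transcript is modified.

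**Figure D4:**
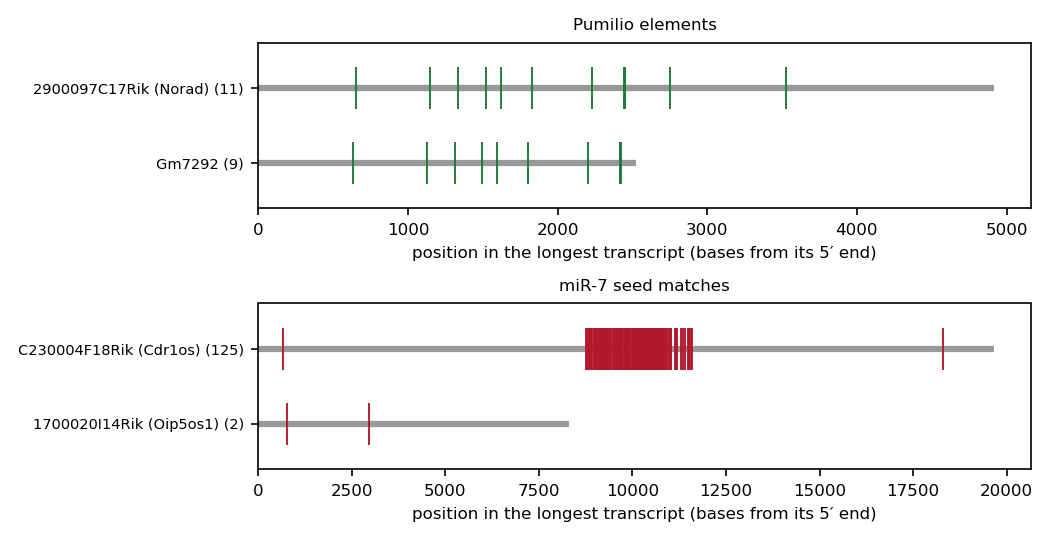
Positions of short motifs (vertical ticks) along the longest transcripts (grey bars, bases from the 5′ end), with the number of matches after each name. The 9 Pumilio elements of Gm7292 fall at nearly the same positions as the first 9 of the 11 in Norad, and 123 of the 125 miR-7 seed matches of C230004F18Rik form a single cluster.

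Norad and Gm7292 cannot be counted apart cleanly. Of the 31-base words of Norad, 93.3% occur more than once in the genome, and its largest copies besides Gm7292 lie on chromosomes 15, 12 and X. Gm7292 aligned to Norad over 2525 of its 2527 bases, with 99.6% identity. Norad had a log2 ratio of 0.46 (0.40 to 0.51) and Gm7292 one of 0.23 (0.04 to 0.41). The summed counts were 7387 in the deeper library and 4636 in the shallower, a ratio of 0.44.

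By such sharing the 46 genes fall into 3 classes, with limits of 20% set after the values were seen. For 9 genes at least 20% of the words occur more than once in the genome, for 8 others at least 20% occur in another gene that overlaps them, and 29 have sequence mostly of their own. These 29 genes held 0.943% of all counts in the deeper library and 1.06% in the shallower. The class of repeated genes holds AY036118, Norad, Gm7292 and Gm27000 as well as copies of protein-coding genes. Gm27000 aligned to Meg3 over its whole length of 842 bases with 99.9% identity, and had 377 counts in the deeper library and 563 in the shallower (-0.81). Summed with Meg3 it gave 981 and 1145 counts, a ratio of -0.46. Gm10076 aligned to Rpl41, which encodes a ribosomal protein, with 99.5% identity in the same orientation. It had more counts (289 and 212) than Rpl41 itself (67 and 87). Of the words of Gm10076, 83.6% occur more than once in the genome, so its reads cannot be told apart cleanly from those of Rpl41.

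Other genes of the class carry the reverse strand of a protein-coding gene's sequence. Gm10874 aligned over 69.5% of its transcript to the reverse strand of Got2, a mitochondrial aminotransferase, with 98.8% identity. Gm26526 did so over nearly its whole transcript to Ube2h, a ubiquitin-conjugating enzyme, with 99.5% identity, and Gm26617 over 49.0% to Zxdb, a zinc finger gene, with 98.0% identity. Their counts were 210 and 203, 76 and 66, and 76 and 54, in the deeper and shallower library in each pair. All 3 intervals of their ratios include 0. Gm26825 overlaps the processed pseudogene Gm15459 on the opposite strand by 1860 bases. It had 862 and 550 counts, against 2505 and 2420 for the pseudogene, so the pseudogene received the larger part of the reads in both libraries.

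The libraries were set against each other as the difference of log2(CPM + 0.5), deeper minus shallower, after scaling by TMM factors (trimmed mean of M values). The median of the 46 genes was 0.07 and that of all 6915 genes of at least 20 CPM was 0.04. Without the factors these medians were -0.07 and -0.10, so the direction of a small ratio depends on the scaling. Of the 46 genes, 24 were higher in the deeper library and 22 lower, and 35 (76.1%) lay within 1.5-fold, against 84.4% of all genes. The counting interval lay above 0 for 12 genes, below 0 for 10, and included 0 for 24. The same count over all genes was not made. Beyond counting error, the libraries spread with a coefficient of variation (SD over mean) of 0.268, by the common dispersion of edgeR over 13620 genes. An interval off 0 thus does not set a gene apart from that spread.

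At least 2-fold apart were 4 of the 46 genes (8.70%), against 3.93% of all 6915 genes. With 4 genes this share is a description of which genes moved. Higher in the deeper library were Gm20300 and Gm26883. Lower were Gm26899 and Mirg, which is described above. Gm20300, Gm26899 and Mirg were over 20 CPM only in the library where they were higher, and passed the minimum through it. The minimum and the fold thus rest on the same values. Over all genes, 1.98% were higher by this limit and 1.95% lower.

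**Figure D5:**
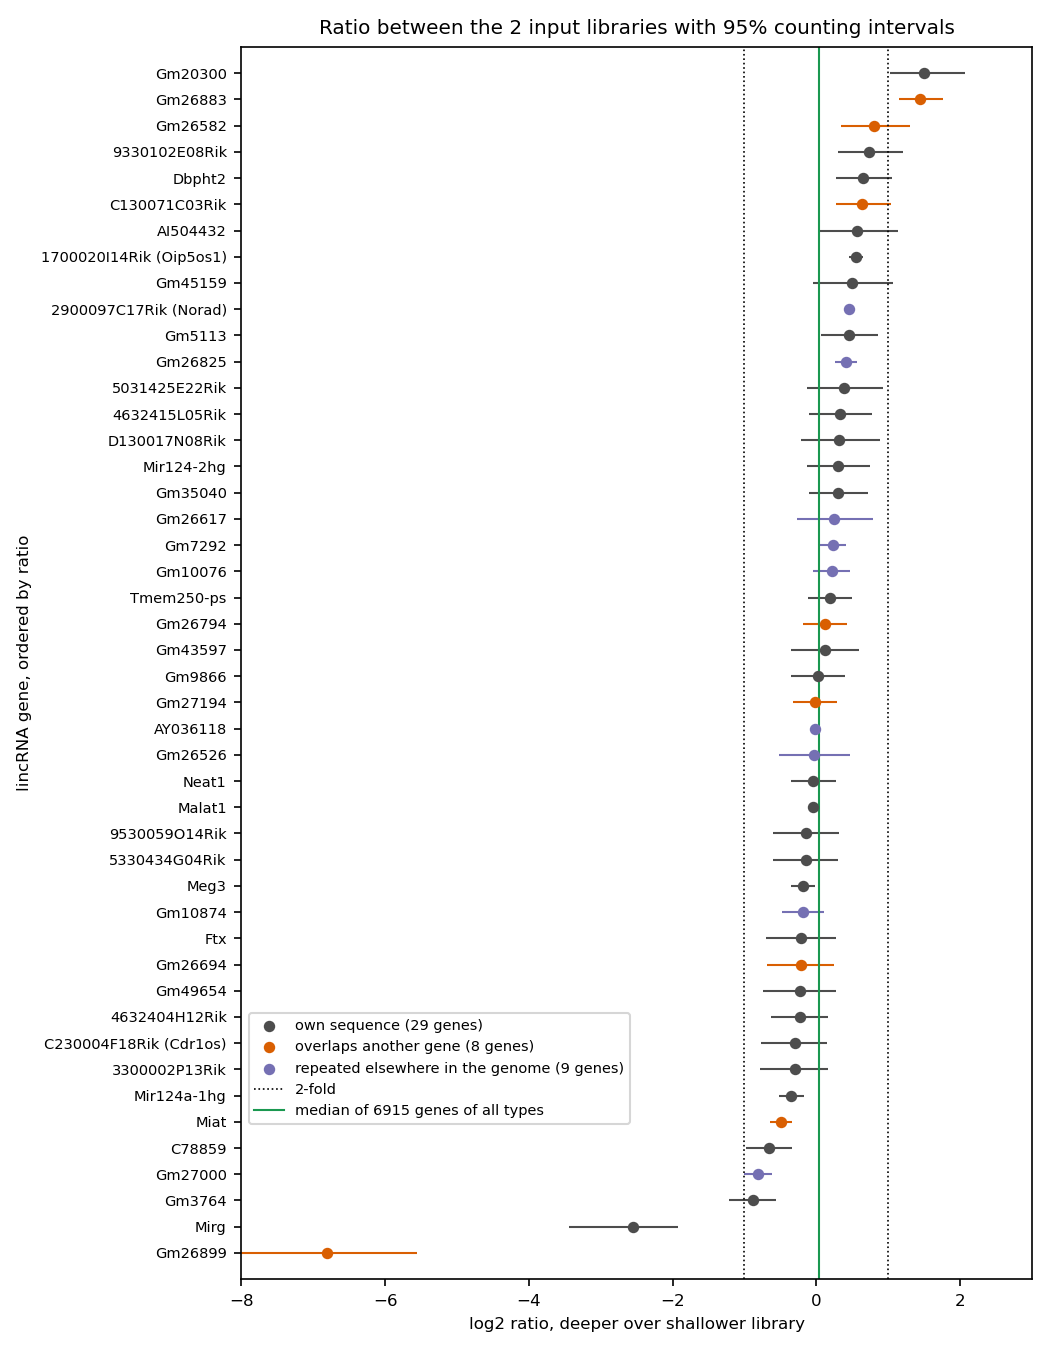
Log2 ratio of deeper over shallower library (horizontal axis) for each of the 46 genes, ordered by ratio; bars are 95% counting intervals, and colour shows whether the sequence is the gene's own, overlaps another gene or is repeated in the genome. Most genes lie between the dotted lines at 2-fold, Gm20300 and Gm26883 lie to the right of them, and Mirg and Gm26899 to the left. The interval of Gm26899 has no lower end, since its count in the deeper library was 0.

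Gm26899 and Gm26883 both overlap a protein-coding gene on the opposite strand. Gm26899 had 0 counts in the deeper library and 150 in the shallower (58.5 CPM). With TMM factors it was at least 58.8-fold lower in the deeper, taking 3 counts as the limit of a count of 0, and the upper end of its counting interval was -5.56 on the log2 scale. Its partner Zfp106, a zinc finger protein that binds RNA, shares 2719 exon bases with it and had 1168 and 640 counts. Zfp106 went the other way, and the sum of both was 1168 in the deeper library and 790 in the shallower, a log2 ratio of 0.33. Gm26883 had 378 counts in the deeper library and 117 in the shallower, a ratio of 1.446 (1.15 to 1.77). Tshz2, a zinc finger homeobox transcription factor, shares 5076 exon bases with it and had 89 and 190 counts, a ratio of -1.31. The sum of this pair was 467 and 307, a ratio of 0.37. In both pairs member and partner thus had ratios of opposite sign, and both sums lay nearer to 0 than any of the 4 genes. The ratio of a sum falls between those of its 2 genes, so its place is largely set by arithmetic. The pairs were also picked because the member was at least 2-fold apart.

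Over the 46 genes, 16 pairs of a member and an opposite-strand gene with shared exon bases had counts in the partner. In 9 of them the ratios had opposite signs, and in 4 of these both intervals also lay off 0: the 2 pairs above, Gm26825 with Gm15459, and C130071C03Rik with Gm33366. Gm26825 had a ratio of 0.41 against -0.19 for Gm15459, and their sum one of -0.05. C130071C03Rik had a ratio of 0.64 against -1.46 for Gm33366 (11 and 28 counts), and their sum one of 0.35. In the other 7 pairs the signs were equal. How often pairs of unrelated genes have opposite signs was not counted. Gm26582 had 114 and 55 counts (0.80), and its partner G3bp2, a stress granule protein, had 753 and 556 (0.20). Gm26794 had 205 and 160 counts (0.12), and Kcnj3, a potassium channel subunit, had 164 and 104 (0.42). Gm26694 had 81 and 80 counts, over 1826 exon bases shared with Metrn, which had 7 and 4. The signs of this last pair were opposite, and both intervals included 0. The remaining genes of the class are Miat and Gm27194.

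Gm20300 was the one gene of the 29 with sequence mostly of their own that was at least 2-fold higher in the deeper library. It has a single exon of 3440 bases (chr10:30603195-30606634, minus strand) and had 143 counts (42.9 CPM) in the deeper library and 42 counts (16.4 CPM) in the shallower. Its log2 ratio was 1.503 (1.03 to 2.06). Short of 2-fold, 9330102E08Rik (126 and 64 counts, 0.73) and Dbpht2 (161 and 87 counts, 0.64) were higher in the deeper library with intervals above 0. Gm5113 (144 and 89 counts, 0.45) and AI504432 (81 and 46 counts, 0.57) were likewise.

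For the rest of the genes with their own sequence, the libraries did not differ beyond counting error. Tmem250-ps (214 and 160 counts), Gm9866 (129 and 108), 4632404H12Rik (110 and 110), 4632415L05Rik (111 and 75) and Gm43597 (88 and 69) had intervals that include 0. The same held for 5330434G04Rik (87 and 82), 3300002P13Rik (76 and 80), Gm49654 (67 and 67), 5031425E22Rik (79 and 51), Gm45159 (75 and 45) and D130017N08Rik (71 and 48). Among them all but Tmem250-ps and Gm9866 had intervals that reach past 1.5-fold on at least one side, so a difference of that size lies within their counting error. Gm27194 (202 and 174), of the overlapping class, belongs with them.

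The 46 genes had longer transcripts than other lincRNA genes and as few exons. The median longest transcript was 3911 bases, against 1741 bases for the other 850 detected lincRNA genes and 4365 bases for protein-coding genes at the minimum. The minimum is set in CPM, not per length, so a long transcript reaches it at a lower level per length. The median number of exons was 2, as in the other lincRNA genes, against 11 in protein-coding genes. A single exon was annotated for 11 of the 46 (23.9%), against 14.5% and 2.16% in the other sets. The median GC content was 48.5%, against 47.1% in the other detected lincRNA genes and 49.9% in protein-coding genes, and a median of 14.4% of exon bases (range 2.06 to 40.5%) was marked as repeat in the genome sequence.

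GC content went with the ratio between libraries. Over the 46 genes Spearman's rho was -0.38, and over the nuclear protein-coding genes at the minimum it was -0.41, so GC-rich transcripts tended to be lower in the deeper library in both sets. The points share both libraries, and rho is given as a description. With the trend on GC removed, the median ratio of the 46 genes was 0.01 and 4 were still at least 2-fold apart.

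Some of the genes start close to a protein-coding gene that runs the other way. Such head-to-head pairs within 5 kb were 5 of the 46 (10.9%), against 17.3% of the other detected lincRNA genes. The start sites of Gm5113 and Zfp146 are 125 bases apart, those of 5031425E22Rik and Kmt2e, a chromatin regulator, 172 bases, those of 4632404H12Rik and Ube2q1, a ubiquitin-conjugating enzyme, 376 bases, and those of 3300002P13Rik and Cacng6, a calcium channel subunit, 750 bases. The fifth pair is Gm26694 with Fam173a. 5031425E22Rik (0.39) and Kmt2e (336 and 201 counts, 0.50) had ratios of the same sign. So did 4632404H12Rik (-0.23) and Ube2q1 (244 and 262 counts, -0.34), and Gm5113 (0.45) and Zfp146 (78 and 52 counts, 0.34). The intervals of 5031425E22Rik, 4632404H12Rik and Zfp146 include 0, and how often other neighbouring genes share a sign was not counted. 3300002P13Rik had 76 and 80 counts, whereas Cacng6 had 6 and 2, so this lincRNA was measured in hippocampus where its neighbour was nearly undetected. Its ratio (-0.30) and that of Cacng6 (0.95) had opposite signs, as did those of Gm26694 (-0.21) and Fam173a (0.09), and the intervals of all 4 include 0.

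The 46 genes lie on 15 chromosomes, most often on chromosome 5 with 7 genes and on chromosome 2 with 6. Chromosomes 3, 7, 12 and X hold 5 each. On the X chromosome these are Gm27000, 5330434G04Rik, C230004F18Rik, Ftx and Gm26617, of which the first 4 contain a microRNA gene.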

How the data were processed

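RNA of 2 input libraries of mouse hippocampus was analysed. The deposited values are raw counts of reads and FPKM; the authors' FPKM equal counts over the library total and one length per gene. The submitters' processing notes name GRCm38, BWA 0.7.12, MACS2 2.1.0 and HOMER. Not given in the sources used here are the read counter, the annotation and how strand and multi-mapped reads were handled.

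Gene types, positions and transcripts came from GENCODE M21 (GRCm38), which matched 52489 of 52636 gene IDs. CPM, shares with exact binomial intervals (95%, counting error only) and log2 ratios of CPM + 0.5 with TMM factors of 0.951 (deeper) and 1.05 (shallower; edgeR 4.0.16) were computed. 31-base words were counted over GENCODE transcripts and the primary assembly. Mature microRNAs came from RefSeq. One group allows no test, so none was made. The 2-fold limit was tried on simulated counts that held counting error only and no further spread between libraries, so that trial does not bear on these libraries. A count of 0 allows 3 counts, or 0.900 CPM in the deeper and 1.17 CPM in the shallower library.

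The 46 genes and the lists were chosen with earlier results of these data known. Named with values are the 12 highest genes by CPM, genes without Gm, Rik or clone names, those 2-fold apart and those at the minimum, and others by sequence class or microRNA, chosen after their values were seen. Alternatives were other minimums, totals, scalings, pseudocounts, sequence limits, a GC correction and single libraries.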

Additional observations from a re-analysis of the deposited data

How the results depend on the processing

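The number of genes was 79 at a minimum of 10 CPM, 19 at 50 CPM and 19 at a mean of 20 FPKM, and with a single library it lay between 47 and 48. Their summed share of counts was 1.56% with the total and members taken without mitochondrial, ribosomal and 7SL genes, 0.999% for genes sharing under 20% of their words, and 1.32% without AY036118. Single libraries gave 4.01 to 4.43%. The number at least 2-fold apart was 15 of 79 at 10 CPM, 1 of 19 at 50 CPM and 2 of 29 among genes sharing under 20% of words. It was 5 without TMM factors and 4 with DESeq2 size factors, with a pseudocount of 2 CPM and with the GC trend removed. The median ratio ranged between -0.07 (without TMM factors) and 0.13 (DESeq2 size factors). Genes with under 100 counts in both libraries had intervals reaching past 1.5-fold on at least one side, except Gm26526. No paired analysis was possible because the input columns carry no replicate number of the sample titles and the immunoprecipitated libraries were not analysed here.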
